A study of Rattus norvegicus with 20 samples.

Results

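Homeobox genes encode transcription factors with a homeodomain, the part of the protein that binds DNA. The families described here were Hoxa, Hoxb, Hoxc, Hoxd, Lhx, Six3 to Six6, Emx, Meis, Pbx, Irx, Msx, Dlx, Nkx, Prrx and Pitx, with Hlx added. Members were chosen by symbol. A probe set was taken when its single annotated symbol began with one of these names, and for each gene the probe set of highest mean log2 signal stood for it. This gave 62 genes from 74 probe sets, out of 14217 genes with 1 symbol on the array. Of these, 45 passed the filter on low signal and entered the tests, with 11677 genes in all. The Hox clusters supplied 24 members and the other families 38. The symbol rule also took Hoxa11-as, by its name an antisense transcript and not a homeodomain gene, which did not pass the filter. Hoxa3l1, counted with the Hoxa members, is annotated on the plus strand, while Hoxa7, Hoxa9, Hoxa10 and Hoxa11 are on the minus strand.

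Hox genes lie in 4 clusters, and their order along the chromosome follows their order of expression along the body axis. The trunk region that forms the gonad and the neighbouring mesonephros (the transient embryonic kidney) expresses Hox genes of the middle and posterior part of the clusters. Meis and Pbx proteins bind DNA together with Hox proteins. Emx2 and Lhx9 are needed for the gonad to form from the epithelium of the genital ridge, and Six4 acts in gonadal precursor cells. In the rat GRCr8 assembly of RefSeq, the Hoxa members lie on chromosome 4, Hoxb on chromosome 10, Hoxc on chromosome 7 and Hoxd on chromosome 3.

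RNA came from Sprague-Dawley rat embryonic testes and was hybridised to 20 Affymetrix arrays, 2 in each of 10 groups. In utero groups were testes of embryonic days 13, 14 and 16 (E13, E14, E16) from dams injected each day from E8 to E14 with vinclozolin, an antiandrogenic fungicide, at 100 mg/kg/day, or with DMSO alone (vehicle). E13 embryos were therefore taken before the injections ended. In the culture groups, E13 gonads were kept for 3 days on filters with the mesonephros attached and were separated from it before RNA was taken. They received vinclozolin at 50 µM in DMSO or the antiandrogen flutamide at 0.5 µM in ethanol, and the gonad of the other side received the solvent. The sex of the in utero embryos was read by PCR for Sry. The labels call the arrays biological replicates and do not say whether they are separate animals or pools, so p-values measure only the spread between these arrays.

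Values are signal intensities, in arbitrary units, and differences are on the scale of log2(signal + 16), which understates changes of dim genes. Below, the 4 values of a day are given in the order vehicle 1, vehicle 2, vinclozolin 1, vinclozolin 2. All 12 in utero arrays had the same trimmed mean, 210.1. Precision is limited by how few arrays there are. For a difference between days, the standard error (SE) had a median of 0.22 over the tested members. In tissue RNA, fewer cells of a type and less RNA per cell cannot be told apart.

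Of the in utero arrays, 3 stood apart. On both E13 arrays numbered 1, Xist, which is transcribed from the inactive X chromosome, read 759 and 896, against 20.4 and 17.9 on those numbered 2, although the labels give all as testis. The Y-linked Eif2s3y read 2363 to 3182 on the 4 E13 arrays. Amh, a hormone of Sertoli cells, read 106 and 372 on the arrays numbered 1 and 1485 and 1102 on those numbered 2. The third was E14 vehicle 1, whose summed signal of 5 mesonephros markers on the array, of 7 listed (Gata3, Pax8, Cdh16, Ret and Pax2), was 1050.4 against 284 to 407 on the other E14 arrays. Other E14 arrays carried such signs too. Xist read 174.9, 184, 32.0 and 489.9 on the 4 E14 arrays and 2.4 to 16.6 at E16, and Eif2s3y read 903 to 1249 at E14 and 2364 to 3496 at E16. On E14 vinclozolin 2, Fst and Foxl2, markers of supporting cells of the ovary, read 379.8 and 117, against 75.4 to 90.3 and 32.5 to 49.2 on the other E14 arrays. The rest of that marker list, Wnt4 and Bmp2, did not follow. They read 1056.4 and 239.9 on E14 vinclozolin 2 and were highest on E14 vehicle 1, at 1392.6 and 326.1. The part of all these signs in the differences between days was not tested. Counts of members called are given below with and without the 3 arrays.

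At E13, 24 of the 62 members were on, meaning at or above the 60th percentile of every array of that day, a signal of 103 to 117. Another 19 were low, under the 40th percentile on every array. This rank within an array is not a comparison of RNA amounts between genes. The members on at E13 made up 38.7% of the 62, while 52.4% of all genes were on by the same rule. At E14, 21 members were on (33.9%, against 52.1% of all genes), and at E16, 14 (22.6%, against 53.5%). Every member that was on at any day or in either culture experiment was on at E13.

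There were 11 members on in all 5 sets of arrays: Emx2, Lhx9, Hoxd4, Hoxd8, Hoxd9, Hoxd10, Meis1, Meis2, Pbx2, Pbx3 and Six5. Hoxc4, Hoxc5 and Prrx2, a factor of mesenchyme, were on at all 3 days but not in both cultures. By contrast, 10 members were on at E13 and not at E16: Hlx, Hoxa5, Hoxa7, Hoxa9, Hoxa10, Hoxb2, Hoxb3, Hoxc9, Hoxd3 and Meis3. By cluster, 4 of 7 Hoxa members were on at E13 and 0 at E16, and 2 of 6 Hoxb members at E13 and 0 at E16. Of the 4 Hoxc members, 3 were on at E13 and 2 at E16, and of the 7 Hoxd members 5 and 4.

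In every set, 15 members were low, among them Nkx2-1, a factor of thyroid and lung, Nkx2-2 and Nkx6-1 of pancreas and neural tube, Six3 and Lhx5 of forebrain, Pitx3 of eye and midbrain, and Hoxb13 of the tail end of the body axis. Hoxb13 read 0.8, 1.4, 1.3 and 1.5 at E13. Low signal here says only that the probe set lay under the 40th percentile of its array, in some cases not far under it. The markers of neurons (5 on the array, of 5 listed) summed to 359 to 399 at E13 and 194 to 285 at E16.

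**Figure D1:**
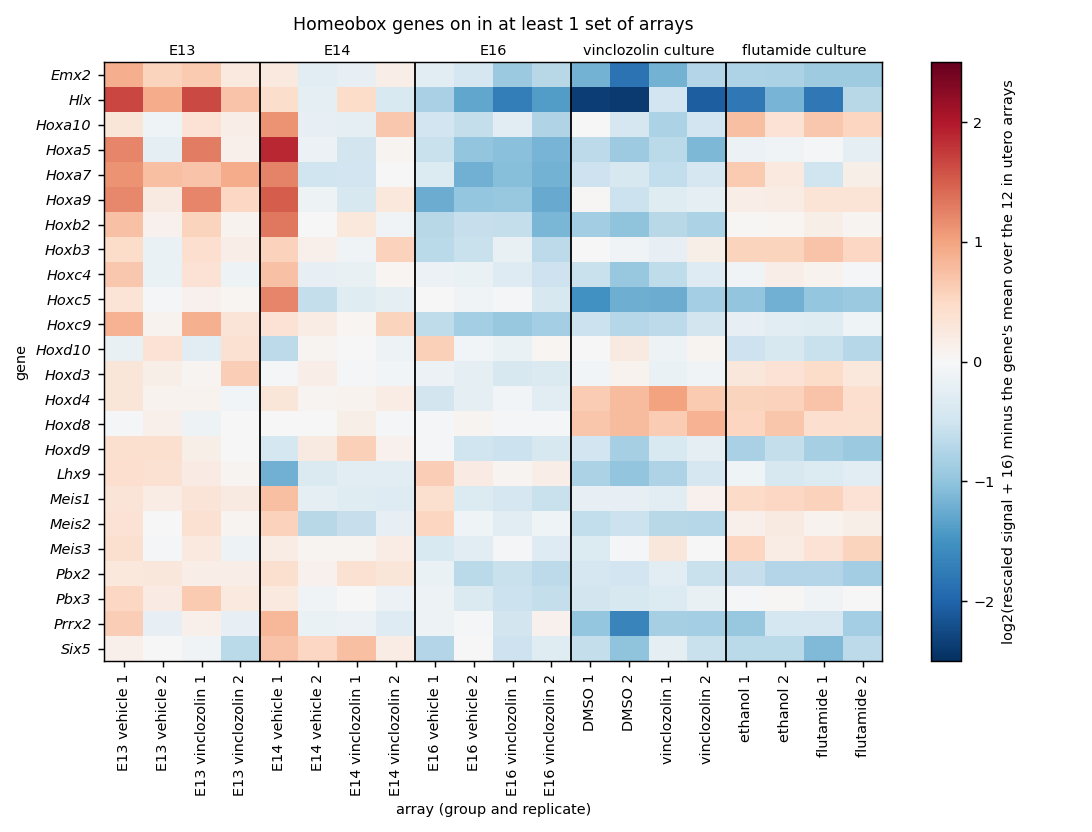
Heat map of the 24 homeobox genes that were on in at least 1 set, one row per gene and one column per array; colour is log2(rescaled signal + 16) minus the gene's mean over the 12 in utero arrays, with every array rescaled to 1 trimmed mean. The Hoxa and Hoxb rows are red on E14 vehicle 1 and on the E13 arrays numbered 1 and blue at E16, while Hoxd8 varies little in utero and is higher in both culture experiments.

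The proximal promoters of 4 Hox members are shown because they carry the same 6 bases close to the transcription start, in genes that fell and in one that did not. Hoxa7, Hoxa9 and Hoxd9 fell from E13 to E16, and Hoxd10 did not pass the test. Each line gives the 250 bases before a RefSeq transcript start of GRCr8, 5′ to 3′ on the gene's strand, with CACGTG (the E-box bound by bHLH factors such as Usf and Myc) in capitals. Hoxa7 is chr4:82648242-82648491 on the minus strand, Hoxa9 chr4:82657049-82657298 on the minus strand, Hoxd9 chr3:80007756-80008005 on the plus strand and Hoxd10 chr3:80001697-80001946 on the plus strand.
Hoxa7: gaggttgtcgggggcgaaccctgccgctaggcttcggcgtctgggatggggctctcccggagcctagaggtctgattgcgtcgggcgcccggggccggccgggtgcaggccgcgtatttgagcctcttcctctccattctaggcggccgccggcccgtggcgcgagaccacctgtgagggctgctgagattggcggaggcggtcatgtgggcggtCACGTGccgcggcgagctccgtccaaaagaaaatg
Hoxa9: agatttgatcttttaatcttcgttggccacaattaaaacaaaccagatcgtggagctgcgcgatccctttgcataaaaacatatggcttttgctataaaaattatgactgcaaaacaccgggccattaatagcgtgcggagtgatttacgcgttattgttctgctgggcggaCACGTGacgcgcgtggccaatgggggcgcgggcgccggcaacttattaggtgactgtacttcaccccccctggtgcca
Hoxd9: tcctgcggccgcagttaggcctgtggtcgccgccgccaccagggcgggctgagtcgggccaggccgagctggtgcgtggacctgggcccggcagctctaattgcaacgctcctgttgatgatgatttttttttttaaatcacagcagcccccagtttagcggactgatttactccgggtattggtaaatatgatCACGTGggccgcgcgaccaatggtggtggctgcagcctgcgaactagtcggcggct
Hoxd10: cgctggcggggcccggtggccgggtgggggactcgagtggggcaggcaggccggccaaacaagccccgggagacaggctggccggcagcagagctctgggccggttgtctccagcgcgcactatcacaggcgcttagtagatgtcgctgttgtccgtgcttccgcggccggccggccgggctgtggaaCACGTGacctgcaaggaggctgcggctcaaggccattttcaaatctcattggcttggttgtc
The motif began 35 bases before the start in Hoxa7, 78 in Hoxa9, 56 in Hoxd9 and 62 in Hoxd10. CACGTG reads the same on both strands. RefSeq promoters were found for 43 member genes (48 promoters), of which 14 were Hox genes (18 promoters). These Hox promoters included no Hoxb gene and only Hoxc4 of the Hoxc cluster. They also included several starts of Hoxa3l1 and the overlapping stretches of Hoxa11 and Hoxa11-as. CACGTG stood in 7 of the 18 Hox promoters (38.9%), against 1 of the 30 other member promoters (3.33%) and 5.59% of all 33469 promoters. The Hox genes with it were Hoxa7, Hoxa9, Hoxd1, Hoxd3, Hoxd9, Hoxd10 and Hoxd11, and the other member was Irx1. It stood in 4 of 13 promoters of members that fell from E13 to E16 (30.8%). The 13 included several starts of Hoxa3l1, none with the motif. Hoxd10, Hoxd11 and Irx1 carried it and were not called as falling, and Hoxd1 was not tested. The share among members not called was not counted, so no link with falling can be read from this. The motif was picked after the sequences were seen, and neighbouring promoters of a cluster are not independent. CCAAT, searched on both strands, was in 38.9% of Hox promoters and 34% of all promoters, and TAATTA, a core homeodomain site, in 5.56% and 4.86%. These matches describe the letters and not binding.

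From E13 to E16, 19 of the 45 tested members fell and 0 rose. In the same comparison 23.9% of all tested genes were called, 10.8% as falling and 13.1% as rising (limma, Benjamini-Hochberg adjusted p under 0.05 over all probe sets). At an unadjusted p under 0.05 (limma), 26 of the 45 members differed, and 7135 of all 22526 tested probe sets. The median difference of the members was -0.49 on the log2 scale and that of all genes 0.01, and 39 members were lower and 6 higher at E16. All 21 tested Hox genes had a median of -0.71, with 12 falling, and the 24 tested members of the other families a median of -0.26, with 7 falling.

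By cluster, 4 of 6 tested Hoxa members fell (median -1.14) and 5 of 5 Hoxb members (median -1.28), against 1 of 4 in Hoxc (-0.44) and 2 of 6 in Hoxd (-0.19). The difference between clusters was not tested.

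Hoxa9, a gene of the posterior trunk, read 496, 247, 504 and 304 at E13, 624, 190.0, 155 and 253 at E14, and 79.3, 98.7, 100.4 and 77.1 at E16. No E16 array reached the lowest E13 array. It fell by 1.89 on the log2 scale (SE 0.29, adjusted p = 0.00023, 4 arrays against 4, limma), a 3.71-fold difference. Hoxa7, its neighbour, read 239, 181, 177 and 207 at E13 and 76.2, 34.9, 39.6 and 35.2 at E16, again without overlap. It fell by 1.84 (SE 0.29, adjusted p = 0.000282, limma). Hoxa5 read 540.2, 184, 558 and 244 at E13 and 144, 104, 99.3 and 89.5 at E16, and fell by 1.54 (SE 0.37, adjusted p = 0.00724, limma). For Hoxa9 and Hoxa5, the arrays numbered 1 were the high ones of E13. Further along the cluster, Hoxa10 differed by -0.71 (SE 0.25, adjusted p = 0.0581, limma), short of the threshold. Hoxa11, which patterns kidney and uterus, differed by -0.20 (95% interval -0.69 to 0.29) at signals of 26.8 to 35.3 at E13.

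Among the Hoxb genes, Hoxb6 read 178, 77.7, 145 and 92.5 at E13 and 52.4, 32.2, 37.1 and 36.3 at E16. It fell by 1.28 (SE 0.28, adjusted p = 0.00386, limma). Hoxb2, known from hindbrain patterning, read 267, 167, 231 and 165 at E13 and 88.6, 97.8, 96.2 and 61.1 at E16, and fell by 1.12 (SE 0.23, adjusted p = 0.00256, limma). For both genes the groups did not overlap. Hoxb4 and Hoxb7 were dim at E16, under the 40th percentile on all 4 arrays. Hoxb4 read 79.3, 64.2, 65.6 and 41.1 at E13 and 5.1, 6.2, 4.9 and 17.5 at E16. Hoxb7 read 68.0, 33.7, 85.2 and 59.2 at E13 and 10.0, 7.1, 5.7 and 7.8 at E16. Their fitted differences of -1.69 and -1.67 became -0.53 and -0.48 when signals under the 40th percentile of the array were set to it. Hoxb3 fell by 0.74.

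Hoxc9, on chromosome 7 from 135997292 to 135999969, read 281, 157, 286 and 188 at E13, 193, 169, 153 and 224 at E14, and 89.1, 74.2, 68.4 and 74.0 at E16. The E16 arrays lay close together and below every other in utero array. The fall from E13 was 1.37 (SE 0.18, adjusted p = 4.79e-05, limma). The other Hoxc members did not pass: Hoxc4 differed by -0.48, Hoxc5 by -0.25 and Hoxc8 by -0.40. A second tested probe set for Hoxc4 gave -0.30 (adjusted p = 0.567, limma).

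The Hoxd cluster moved less. Hoxd8 read 755, 849, 705 and 769 at E13, 773, 767, 856 and 750.0 at E14 and 744, 815, 747 and 743 at E16. The groups overlapped throughout, and the E16 minus E13 difference of -0.01 had a 95% interval of -0.21 to 0.19. Hoxd10 read 576, 847, 541 and 853 at E13 and 993, 622, 584 and 673 at E16, a difference of 0.03 (95% interval -0.37 to 0.42). For Hoxd10 the E13 arrays numbered 1 were the low ones. Hoxd9 read 1170.3, 1186, 988 and 898 at E13 and 869, 624, 605 and 673 at E16, and fell by 0.61 (SE 0.15, adjusted p = 0.00987, limma). The Hoxd9 call was lost without both E13 arrays numbered 1. Hoxd3 fell by 0.56, and Hoxd4 differed by -0.36 (adjusted p = 0.058, limma).

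**Figure D2:**
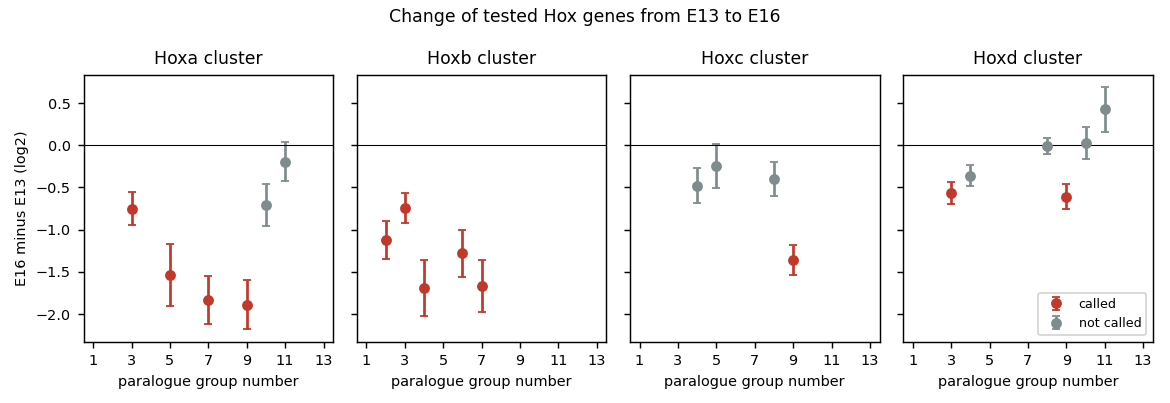
E16 minus E13 difference on the log2(signal + 16) scale for the 21 tested Hox genes, in one panel per cluster, against paralogue group number; points are limma estimates from 4 arrays a day, bars are 1 SE, and red marks an adjusted p under 0.05. Estimates run from -1.89 (Hoxa9) to 0.43 (Hoxd11), and the Hoxb points are all red.

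At E13 and E14, the Hoxa, Hoxb and Hoxc levels were high on the arrays where the summed signal of the mesonephros markers was high. The mean log2 signal of the 15 tested Hoxa, Hoxb and Hoxc genes was 7.62, 7.01, 7.54 and 7.20 at E13, 7.91, 6.73, 6.70 and 7.03 at E14, and 6.37, 6.22, 6.35 and 6.18 at E16. The summed mesonephros signal was 508, 290.3, 470.3 and 300.2 at E13, 1050.4, 292, 284 and 407 at E14, and 161, 189.6, 179 and 189.6 at E16. Both measures were higher on the E13 arrays numbered 1 than on those numbered 2, both were highest on E14 vehicle 1, and both were lowest at E16. Within E16 the order differed, with vehicle 1 having the highest Hox mean and the lowest marker sum. The mean of the 6 tested Hoxd genes was 8.28, 8.19, 8.10 and 8.33 at E13 and 8.16, 7.99, 8.06 and 7.96 at E16, and on E14 vehicle 1 it was the lowest of its day at 7.99. Of the mesonephros markers, Cdh16 was near 0 at E16, at 1.6 to 6.4, and Gata3 still read 87.1 to 109. Other marker sums set the same arrays apart. Sertoli markers summed to 850, 3503, 1347 and 2790 at E13 and 2770, 9030, 9979 and 8199 at E14, low where the Hox means were high. Red cell markers summed to 767, 5544, 954 and 2887 at E13 and 12076, 3226, 4540 and 4706 at E14. The part of mesonephric or other tissue in the Hox differences was not tested.

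The same arrays stood out gene by gene. Both E13 arrays numbered 1 lay above both numbered 2 for 25 of 45 members and 12 of the 15 Hoxa, Hoxb and Hoxc genes, against 20.9% of all genes. E14 vehicle 1 was the highest E14 array for 28 of 45 members and 12 of 15, against 29.9% of all genes. Without both E13 arrays numbered 1, 10 of the 19 falls passed the threshold. The other 9 kept their direction. Some were about as large without those arrays: Hoxd9 at -0.58 (adjusted p = 0.0684), Six4 at -0.56 (adjusted p = 0.0939) and Irx3 at -0.95 (adjusted p = 0.051, limma). Others were smaller: Hoxa5 at -0.88 (adjusted p = 0.136), Hoxb2 at -0.85 (0.0525), Hoxb6 at -0.87 (0.0766), Hoxb3 at -0.52 (0.122), Msx2 at -0.66 (0.123) and Hoxa3l1 at -0.63 (0.107, limma), the last from -0.75 with all arrays. When E14 vehicle 1 was left out as well, 15 members fell. With vehicle arrays alone, 10 members fell, and with vinclozolin arrays alone, 11. Because the same-numbered E13 arrays resembled each other, p-values that count 4 E13 arrays may be too small.

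**Figure D3:**
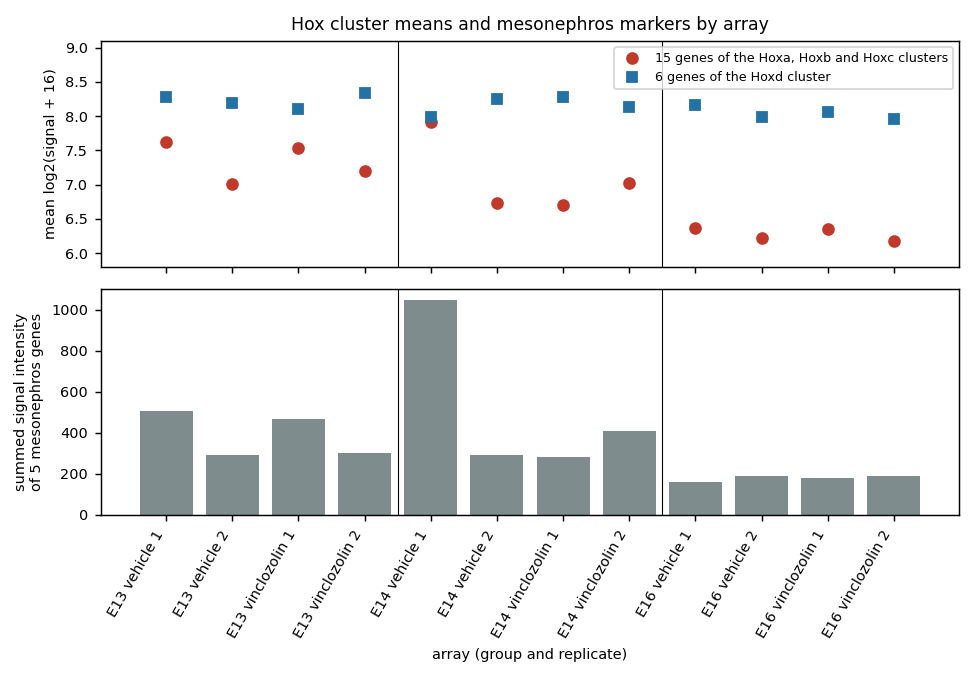
Upper panel, mean log2(signal + 16) of the 15 tested Hoxa, Hoxb and Hoxc genes (circles) and the 6 tested Hoxd genes (squares) on each in utero array; lower panel, summed signal intensity of 5 mesonephros marker genes on the same arrays. E14 vehicle 1 has the highest Hoxa, Hoxb and Hoxc mean (7.91) and the highest marker sum (1050.4), and the Hoxd mean stays between 7.96 and 8.33.

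Of the 19 falls, 7 passed the threshold without any single array, without the arrays that stood apart, and in the vehicle and the vinclozolin arrays taken separately: Emx2, Hlx, Hoxa7, Hoxa9, Hoxc9, Pbx2 and Pbx3. Those outside the Hox clusters follow.

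Emx2, a factor required for the epithelium of the urogenital ridge, lies on chromosome 1 from 268612663 to 268619671. It read 1461, 1152, 1236 and 916 at E13, 927, 640.5, 672 and 872 at E14, and 644, 572, 399 and 477 at E16. Each E13 array was above each E16 array, with E14 between and overlapping both. The fall from E13 to E16 was 1.17 (SE 0.17, adjusted p = 0.000134, limma), a 2.25-fold difference. In vehicle arrays alone it fell by 1.08 and in vinclozolin arrays alone by 1.26. The 6 markers of gonadal mesenchyme and coelomic epithelium on the array (of 7 listed) summed to 11957 to 12635 at E13 and 11109.8 to 12993 at E16. Among them Wt1 fell by 0.84 (adjusted p = 1.39e-05), Pdgfra rose by 1.07 (adjusted p = 1.16e-06), and Tcf21 (0.43), Nr2f2 (-0.12), Gata4 (-0.10) and Nr5a1 (-0.58) did not pass (limma).

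Hlx, a factor of gut and liver mesenchyme, gave the largest difference of any tested member. It read 307, 177, 302.5 and 151 at E13, 122, 71.0, 124 and 61.9 at E14, and 42.1, 25.4, 14.7 and 22.7 at E16. The 3 days did not overlap in this order. Its fall from E13 to E16 was 2.55 (SE 0.33, adjusted p = 5.03e-05, limma). With signals under the 40th percentile set to it, Hlx fell by 2.11.

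The Pbx genes encode partners that bind DNA with Hox proteins. Pbx3 read 1325, 1066, 1453 and 1092 at E13 and 848, 719.5, 632 and 606 at E16, and fell by 0.80 (SE 0.12, adjusted p = 0.000125, limma). Pbx2 read 886, 908, 834 and 834 at E13, 981, 795, 963 and 922 at E14, and 658, 456, 498 and 463 at E16. Its E13 and E14 arrays overlapped, and the fall to E16 was 0.74 (SE 0.12, adjusted p = 0.000377, limma). Meis1, the other kind of Hox partner, read 2589, 2346, 2612 and 2429.7 at E13, 3481, 1739, 1668 and 1647 at E14, and 2749.9, 1634, 1536 and 1408 at E16. Vehicle 1 was the high array at both later days. The E16 minus E13 difference of -0.49 did not pass (SE 0.18, adjusted p = 0.0639, limma). Meis2 differed by -0.18 and Meis3 by -0.38, neither past the threshold.

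Msx2, a target of BMP signalling, read 78.1, 46.9, 67.2 and 50.4 at E13 and 19.4, 24.0, 21.7 and 36.2 at E16, and fell by 0.89, a difference of -0.50 with signals under the 40th percentile set to it. Irx3, a factor of neural patterning, fell by 0.85 (SE 0.24, adjusted p = 0.0184, limma), but a second tested probe set for it gave 0.05 (adjusted p = 0.921, limma). Six4 read 125, 128, 111 and 119.8 at E13 and 67.6, 77.7, 84.2 and 87.8 at E16. It fell by 0.53 (SE 0.16, adjusted p = 0.0268, limma). Hoxa3l1, Hoxd9, Irx3 and Six4 lost the call when some single array was left out, and the other 15 kept it. The calls of Msx2, Irx3 and Six4 were also lost without both E13 arrays numbered 1. Lhx1, a factor of the nephric duct, differed by -0.29 and Prrx1, a factor of limb mesenchyme, by -0.11, neither past the threshold.

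Lhx9, a LIM-homeobox gene without which no gonad forms, lies on chromosome 13 from 52941207 to 52961436. It read 1935, 1886, 1661 and 1509.6 at E13, 617, 1117, 1186 and 1198 at E14, and 2215, 1664.5, 1513 and 1609 at E16. All E14 arrays lay below all E13 and E16 arrays, and E13 and E16 overlapped. It fell by 0.80 from E13 to E14 (SE 0.15, adjusted p = 0.00159, limma) and rose by 0.79 from E14 to E16 (SE 0.15, adjusted p = 0.000644, limma). These comparisons share the E14 arrays. E16 minus E13 was -0.01 (95% interval -0.33 to 0.31). Without E14 vehicle 1 and both E13 arrays numbered 1, the differences were -0.54 (adjusted p = 0.0276) and 0.58 (adjusted p = 0.00339, limma). In vehicle arrays alone they were -1.19 (adjusted p = 0.0141) and 1.19 (adjusted p = 0.00162, limma). In vinclozolin arrays alone neither passed, at -0.41 (adjusted p = 0.212) and 0.38 (adjusted p = 0.202, limma).

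**Figure D4:**
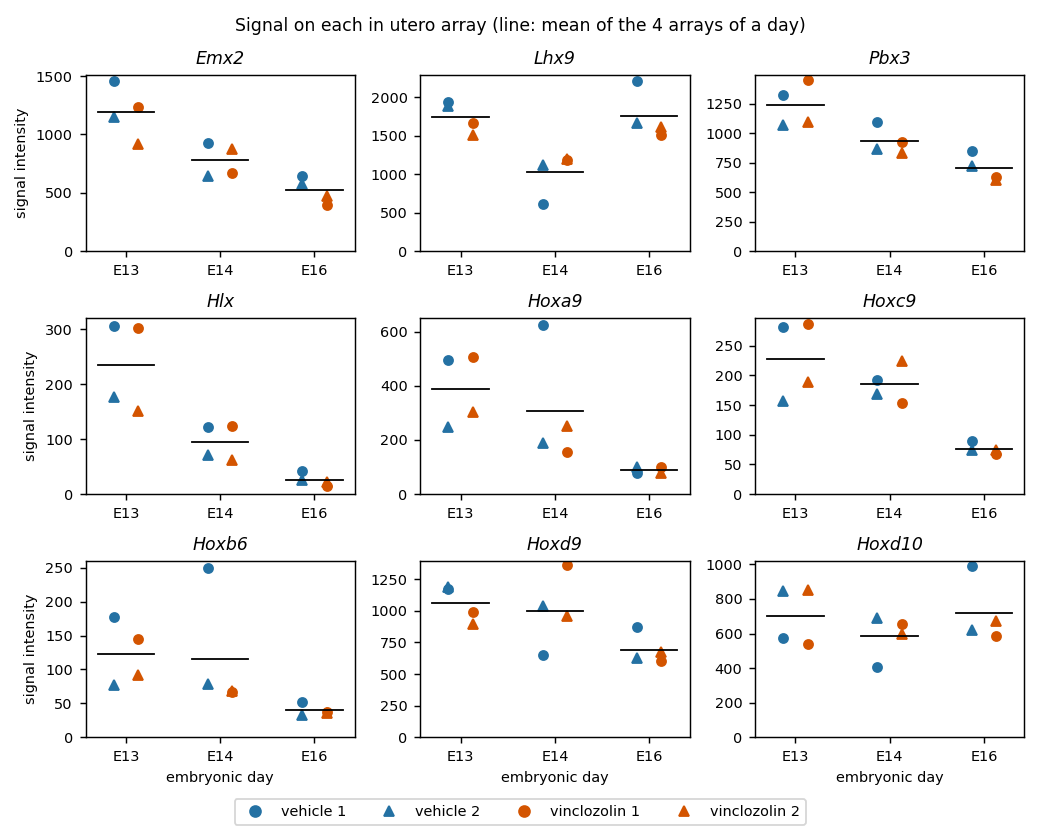
Signal intensity of 9 members on each of the 12 in utero arrays by embryonic day; colour marks the treatment, shape the replicate number, and the line is the mean of the 4 arrays of a day. Emx2, Hlx, Pbx3 and Hoxc9 descend from E13 to E16, Lhx9 is lowest at E14, Hoxd10 overlaps across all days, and for Hoxa9 and Hoxb6 the highest value is E14 vehicle 1.

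From E13 to E14, 8 of 45 tested members were called, 7 falling and 1 rising, in a comparison where 29.9% of all genes were called (13.4% falling and 16.5% rising). The median member differed by -0.04, and the median gene by 0.09. The falls were Hlx (-1.17), Hoxb7 (-1.11), Hoxa7 (-0.82), Lhx9 (-0.80), Dlx1 (-0.77), Emx2 (-0.60) and Pbx3 (-0.40). Six5, a gene next to the myotonic dystrophy kinase, read 340.2, 314, 291 and 188 at E13 and 522, 452, 532 and 357 at E14, and rose by 0.70 (SE 0.19, adjusted p = 0.0123, limma). With signals under the 40th percentile set to it, Hoxb7 differed by -0.30 and Dlx1 by -0.23. Only the Lhx9 call held without each array in turn, and 0 of the 8 held in every fit, since Lhx9 lost the call with vinclozolin arrays alone. Without E14 vinclozolin 2, 6 fell and 1 rose. Without E14 vehicle 1, 12 members fell and 1 rose, and without E14 vehicle 2, 1 fell and 2 rose. Without both E13 arrays numbered 1, 3 members were called, and without all 3 arrays that stood apart, 5 fell and 1 rose.

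From E14 to E16, 21 members fell and Lhx9 rose, where 48.5% of all genes were called (26.3% falling and 22.2% rising). The largest falls were Irx3 (-1.44), Hoxa9 (-1.42), Hlx (-1.38), Hoxb4 (-1.36), Hoxa5 (-1.28), Hoxb2 (-1.13), Hoxc9 (-1.11), Hoxb6 (-1.06), Hoxa7 (-1.02), Six5 (-0.93), Irx1 (-0.88) and Hoxa10 (-0.87). With signals under the 40th percentile set to it, Hoxb4 differed by -0.25, Irx1 by -0.35 and Hlx by -0.95. Irx3 read 99.7, 102, 113 and 228 at E14 and 42.5, 43.6, 22.6 and 43.3 at E16. The second tested probe set for Irx3 gave -0.40 (adjusted p = 0.185, limma). In all, 5 calls held in every fit with arrays left out and in each treatment alone: Hoxb2, Hoxc9, Irx3, Pbx2 and Six5. Without E14 vehicle 1, Hoxa5, Hoxa7, Hoxa10, Hoxd4, Lhx1, Emx2, Meis3 and Pbx3 lost the call, and without E14 vinclozolin 2, Emx2, Hoxa10 and Meis3 did. Without all 3 arrays that stood apart, 15 members fell and 2 rose. With the vinclozolin arrays alone, 9 members were called.

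Summed signals of cell type markers also differed between the days. Signal of 5 Leydig cell markers (of 5 listed) summed to 184 to 349 at E13 and 10320.2 to 20109.6 at E16, and 3 red cell markers (of 4) to 767 to 5544 and 15324 to 26384. Endothelial markers (3 of 4) summed to 893 to 1183 at E13 and 824 to 959.6 at E16. Sertoli markers (3 of 5) summed to 849.7 to 3503 at E13, 2769.6 to 9979 at E14 and 2467 to 3367 at E16. The part of these differences in marker signal in the members' differences was not tested.

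Partner genes were taken from fixed lists, chosen with earlier results of these data known. Eya and Dach proteins are cofactors of Six4 and its relatives. Of 3 tested genes of that list (6 listed), 2 fell from E13 to E16, against 10.8% of all genes: Dach1 by 1.12 (SE 0.24, adjusted p = 0.00376, limma), from 186 to 342 at E13 to 89.2 to 120.1 at E16, and Eya1 by 0.83 (adjusted p = 0.00438, limma). LIM-homeodomain proteins such as Lhx9 act through Ldb cofactors. Of 7 tested genes of that list (8 listed), Ldb2 rose by 1.28 (SE 0.16, adjusted p = 3.03e-05, limma), from 178 to 262 to 476 to 715, and Ssbp3 fell by 0.55. Of 5 relatives of Meis and Pbx, Tgif1 alone fell, by 0.60. Other homeodomain genes gave 7 falls among 11 tested (18 listed, Tgif1 being in both lists), with Alx1 (-1.92), a mesenchymal factor, Zfhx3 (-1.64) and Pax2 (-1.16), a factor of the nephric duct that is also one of the mesonephros markers. Over all lists, 19 of 53 tested genes fell and 1 rose from E13 to E16, with a median of -0.30, where 10.8% of all genes fell, 13.1% rose and the median was 0.01.

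No member was called in any of the 6 treatment comparisons (0 of 45 each, limma), where 0% of all genes were called in 5 and 0.00856% (1 gene) in vinclozolin at E14. Counts at an unadjusted p under 0.05 are given beside the share of all genes. Averaged over the 3 days in utero, 1 member passed that limit (3.16% of genes). By day the counts were 1 at E13 (1.34%), 7 at E14 (5.66%) and 1 at E16 (4.31%). In culture they were 7 with vinclozolin (2.54%) and 0 with flutamide (1.82%). The smallest adjusted p of a member was 0.666, at E16. The median SE of a member was 0.18 for the mean over the days and 0.31 for a single day or culture, so modest changes could not be detected with 2 arrays against 2.

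Meis1 had the smallest p in utero. It differed by -0.35 with vinclozolin (95% interval -0.66 to -0.05, adjusted p = 0.998, limma), and its values overlapped. Emx2 differed by -0.25 (95% interval -0.54 to 0.04) and Lhx9 by -0.02 (-0.28 to 0.24). At E13 the smallest p was that of Irx5 (-0.80, adjusted p = 1, limma). At E14 Msx2 differed by -0.80, Hoxb6 by -0.93, Meis1 by -0.57, Lhx1 by -0.70 and Lhx9 by 0.51, each with an adjusted p of 0.888 (limma). In each of these 5 genes the vehicle array numbered 1 was the most extreme E14 array. The naming rule also picked Irx3 (0.60) and Hoxd9 (0.46) at E14, and Lhx1 was named outside it. Irx3 read 99.7, 102, 113 and 228, so that vinclozolin 2 was its extreme array. Hoxd9 read 655, 1036, 1360 and 960. Without vehicle 2, which leaves vehicle 1 as the only vehicle array of that day, 7 members were called at E14. At E16 Hoxa11 differed by 0.81 and Meis1 by -0.52. The treatment effect was not shown to differ between days for any member (limma F test, 0 of 45 called, 2 at an unadjusted p under 0.05 against 3.26% of genes).

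In culture, vinclozolin minus DMSO was -0.96 for Hoxa11 (adjusted p = 1, limma), at 30.1 and 20.3 with DMSO and 4.8 and 5.2 with vinclozolin, all dim. Hoxb7 differed by 1.15, at 8.7 and 6.2 with DMSO and 36.4 and 35.3 with vinclozolin. Hlx differed by 1.13, Irx3 by 0.80, Msx1 by -0.68 and Emx2 by 0.56, none past the threshold. Flutamide minus ethanol was 0.64 for Irx5 and -0.58 for Msx2, the members of smallest p. Emx2 differed by -0.10 with flutamide (95% interval -0.61 to 0.41) and Lhx9 by -0.05 (-0.51 to 0.40). The compounds differed in dose, solvent and scaling set, so their effects are given side by side only. Xist read 168 to 212 on every array of the flutamide experiment, solvent and treated. In the vinclozolin experiment it read 5.2 and 5.4 with DMSO and 5.1 and 113 with vinclozolin. As deposited, Eif2s3y read 668 to 765 in the flutamide and 3115 to 3330 in the vinclozolin experiment (trimmed means 107 and 218.1). Foxl2 read 65.5 to 77.3 and 8.6 to 98.4 in the same order. The part of these signs in the culture values was not tested.

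Cultured testes were also set against the E13 testis from which they start, on values rescaled to 1 trimmed mean and without a test, since the culture sets were scaled separately and set and culture cannot be told apart. A gene counted as shifted when the 4 arrays of a culture experiment did not overlap the 4 E13 arrays and the means differed at least 2-fold. In both experiments, 4 members were lower and 0 higher, where 1.3% of all genes were lower and 2.58% higher. Both experiments share the E13 arrays. With each experiment counted by itself, 13 tested members were shifted in the vinclozolin and 7 in the flutamide experiment, these 4 included. All were lower except Pitx1, which was higher by 1.04 in the flutamide experiment. The share of all genes shifted in a single experiment was not counted. The median member differed by -0.66 and -0.16, and the median gene by -0.02 and 0.07.

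Hlx was lowest, with differences of -3.06 in the vinclozolin experiment and -2.60 in the flutamide experiment. Its rescaled signal was 3.9 and 3.4 with DMSO, 57.2 and 8.5 with vinclozolin, 13.5 and 29.4 with ethanol and 13.3 and 46.7 with flutamide. One vinclozolin array was thus far above the rest of its experiment. Emx2 differed by -1.83 and -1.43, at 203 to 460.5 and 411 to 445 against 916 to 1461 at E13. Msx2 differed by -1.35 and -1.09. Hoxc5 differed by -1.32 and -1.14, at 77.4 to 131.5 and 99.7 to 123 against 244 to 319 at E13, while from E13 to E16 in utero it differed by -0.25. The Hoxa genes were lower mostly in the vinclozolin experiment: Hoxa7 differed by -1.37 and -0.75 and Hoxa9 by -1.05 and -0.53.

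Other members were higher in culture. Hoxd8 differed by 0.76 and 0.52 and Hoxd4 by 0.67 and 0.47, and for both genes every culture array lay above every E13 array. Their values missed the 2-fold limit. Lhx9 differed by -1.01, a shift by the rule above, in the vinclozolin experiment and by -0.55, no shift, in the flutamide experiment. Meis1 differed by -0.41 and 0.22. The mesonephros markers summed to 200 to 372 in the vinclozolin experiment, on its own scale with a trimmed mean of 218.1. In the flutamide experiment they summed to 254.5 to 296, with a trimmed mean of 107. These sums are as deposited, unlike the rescaled values above. The E13 sums of 290 to 508 had a trimmed mean of 210.1, so the flutamide sums are not comparable with them and cannot be read as lower.

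**Figure D5:**
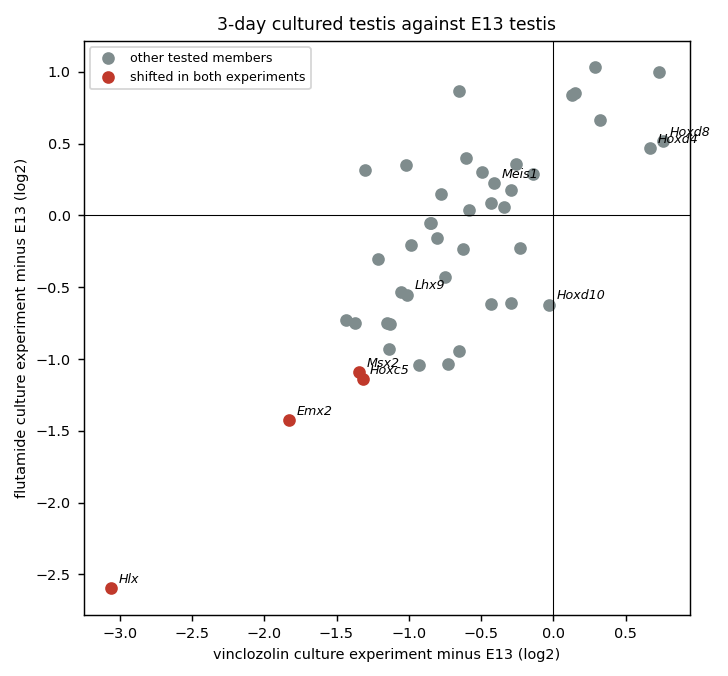
Difference of the mean log2(rescaled signal + 16) from the 4 E13 arrays for the 45 tested members, in the vinclozolin culture experiment (x axis) and the flutamide culture experiment (y axis), treated and solvent arrays together. Red marks the 4 members shifted in both experiments, Hlx, Emx2, Hoxc5 and Msx2, while Hoxd8 and Hoxd4 lie above 0 on both axes.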

How the data were processed

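Total RNA of embryonic rat testes was hybridised to Affymetrix arrays, 2 per group. The deposited values are signal intensities on a linear scale, which the authors made with MAS5 in GCOS, per the submitters' processing notes (their versions are not stated there). The trimmed mean, 2% cut at each end, was equal within each set of arrays. Symbols came from the platform annotation: 20826 probe sets had 1 symbol, 436 several and 9780 none. Promoters and gene positions came from RefSeq GRCr8 tables. Hoxa11 matched no gene there.

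A pseudocount of 16 was added before log2. Probe sets at or above the 40th percentile of the array on at least 2 arrays were tested (22526 of 31042 without controls). All 20 arrays entered 1 limma fit (limma 3.58.1, R 4.3.3; 1 mean per group, eBayes with trend, two-sided), adjusted by Benjamini-Hochberg over all tested probe sets at 0.05. Days were compared over the mean of their vehicle and vinclozolin groups. The script was tested on simulated data. Culture was set against E13 without a test. Members and lists were chosen with earlier results of these data known. Named by rule were up to 12 rises and falls per comparison of days, the 3 smallest p-values in each direction per treatment, Lhx9, Emx2, Six4, Meis1, Meis2, Lhx1, Hlx and Prrx1, up to 4 partner genes each way, and up to 6 culture shifts each way; other genes were named after their values were seen. Alternatives varied the normalization, pseudocount (1 and 64), filter, trend, probe set, replicate block, call rule and arrays used. Scanner images and presence calls were left out.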

Additional observations from a re-analysis of the deposited data

Results flagged for a closer look

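Among the sets of 4 arrays (5 sets for each of 33 named members, 165 in all), 25 held 1 array far from the other 3 by Dixon's criterion. For independent values of 1 normal distribution, that criterion flags about 1 in 20 sets. The sets here share arrays and mix treated and control arrays. Their members were named partly for their differences, so the count cannot be set against that rate. Of the 25 flagged arrays, 9 were E14 vehicle 1. On that array Hoxa5 read 864 (others 157 to 234), Hoxb2 407.2 (144 to 188), Hoxb4 88.6 (31.2 to 39.7), Hoxb6 249.8 (66.7 to 78.4) and Hoxb7 74.8 (7.6 to 12.5). Irx1 read 78.2 there (42.2 to 47.2), Lhx1 94.7 (30.9 to 38.0) and Meis1 3480.6 (1647 to 1739), all higher than on the other arrays, while Lhx9 was lower at 616.7 (1117 to 1197.5). The summed signal of the mesonephros markers on that array was also the highest of the in utero arrays, at 1050.4, and its part was not tested.

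At E16, vehicle 1 was high for Hoxa7 at 76.2 (34.9 to 39.6), Meis1 at 2749.9 (1408 to 1634) and Meis2 at 1344.7 (759.6 to 855), and low for Msx1 at 37.9 (67.2 to 69.9). Hoxd8 read 815.2 on E16 vehicle 2, against 743 to 747. On vinclozolin arrays, Hoxb4 read 17.5 on E16 vinclozolin 2 (4.9 to 6.2), Irx3 228.1 on E14 vinclozolin 2 (99.7 to 113) and 22.6 on E16 vinclozolin 1 (42.5 to 43.6).

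In culture, Hlx read 59.4 on vinclozolin 1 (3.5 to 8.8), Irx3 61.1 on vinclozolin 2 (13.4 to 19.4) and Prrx1 41.2 on DMSO 1 (9.8 to 13.9). In the flutamide experiment, flutamide 2 read 28.8 for Dlx1 (16.4 to 18.3) and 18.8 for Prrx1 (1.9 to 3.0), flutamide 1 read 53.9 for Msx1 (37.0 to 38.9) and 69.3 for Six5 (96.0 to 97.2), and ethanol 1 read 1.5 for Lhx2 (20.6 to 24.1).

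Among 33 named members, 3 differed with vinclozolin in opposite directions at different days, without overlap of treated and vehicle arrays at either day. The share of all genes doing so was not counted. With 2 arrays a side, lack of overlap was frequent. It was seen in 9, 9 and 14 of the 45 tested members at E13, E14 and E16, with 0 called at each day. The share of all genes without overlap was not counted, so these counts cannot be read as responses. Lhx9 was lower at E13 (-0.27) and E16 (-0.30) and higher at E14 (0.51), and the limma F test of a difference between days gave an adjusted p of 0.983. Emx1 differed by -0.51 at E13 and 0.44 at E16, and Six4 by -0.12 at E13 and 0.20 at E16, differences between days that did not pass the same F test.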

How the results depend on the processing

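With 2 arrays per group, signal over background limits the dim members, and the E13 and E14 arrays that stood apart limit the comparisons of days. The 19 members called from E13 to E16 were 10 with vehicle arrays alone, 11 with vinclozolin arrays alone, 10 without both E13 arrays numbered 1, and 17 to 21 with 1 array left out. The 8 called from E13 to E14 were 4 by an unadjusted p with a 1.5-fold change and no overlap, 5 with the in utero arrays fitted alone, 3 without both E13 arrays numbered 1, 1 with vehicle arrays, 4 with vinclozolin arrays, and 3 to 13 with 1 array left out. The 22 from E14 to E16 were 9 with vinclozolin arrays and 15 to 25 with 1 array left out. The partner genes called, 20 from E13 to E16, were 11 with vehicle arrays, 8 with vinclozolin arrays and 15 to 21 with 1 array left out. By the unadjusted p with a 1.5-fold change and no overlap, vinclozolin gave 1 member at E13, 4 at E14 and 6 in culture. The share of all genes passing that rule was not counted for any comparison, so these counts cannot be read as responses. Lack of overlap by itself was seen in 9, 9 and 20 of the 45 tested members in these 3 comparisons, and its share of all genes was not counted either. With 1 array left out, vinclozolin at E14 gave 0 to 7 members and every other treatment comparison 0 to 0. At the 70th percentile, 13 members were on at E13, 10 at E14 and 12 in the flutamide culture; at the 60th, leaving out 1 array gave 24 to 25, 21 to 22, and 14 to 15 at E16. Culture shifts in both experiments were 10 on deposited values, 2 with a pseudocount of 64, 11 at a difference of at least 0.58, and 3 to 6 with 1 array left out. Directions turned only for values that passed no test, given here for each reversing setting with the range over single arrays left out. Prrx1 from E13 to E14 was 0.022 with a pseudocount of 64, 0.406 without both E13 arrays numbered 1, 0.209 also without E14 vehicle 1 and 0.345 with vehicle arrays (range -0.386 to 0.377). Prrx1 from E13 to E16 was 0.296 without the E13 arrays numbered 1, with or without E14 vehicle 1, and 0.159 with vehicle arrays (range -0.403 to 0.174), and from E14 to E16 0.087 without all 3 (range -0.491 to 0.271). Lhx9 from E13 to E16 was 0.036 without those E13 arrays, with or without E14 vehicle 1, and 0.007 with vehicle arrays (range -0.109 to 0.095). Meis2 from E13 to E16 was 0.042 with vehicle arrays and Lhx1 0.026 with vinclozolin arrays. From E14 to E16, Meis1 was 0.056 without all 3 (range -0.441 to 0.056) and Meis2 ranged from -0.077 to 0.555. Nkx2-5 vinclozolin minus vehicle at E13 was -0.278 without both arrays numbered 1 (range -0.217 to 1.172), and Hoxd11 vinclozolin minus vehicle at E13 ranged from -0.014 to 0.915. Lhx2 with flutamide ranged from -0.118 to 1.078. The causes were not tested. Replicate numbers are not stated to pair samples, and deviations of same-numbered arrays correlated at 0.60 at E13, -0.06 at E14, -0.11 at E16, 0.12 among cultures with vinclozolin and 0.00 with flutamide. With the replicate number as a block, 20, 9 and 23 members were called between E13 and E16, E13 and E14, and E14 and E16, and 0 in every treatment comparison. With the E16 numbers crossed, a pairing added after the data were seen, 5 probe sets and 0 members were called.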

Other observations

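Regulators of the Hox clusters were read from 2 further lists, chosen with earlier results of these data known. Polycomb and trithorax genes encode the complexes that hold Hox genes silent or active. Of 18 tested (21 listed), 7 fell and 0 rose from E13 to E16, where 10.8% of all genes fell and 13.1% rose. Kmt2d, a histone methyltransferase, fell by 0.90 (SE 0.18, adjusted p = 0.00182, limma), from 459.9 to 539 at E13 to 170.2 to 314 at E16. Kmt2a, the homologue of trithorax, fell by 0.74, Kdm6b, which removes the Polycomb mark, by 0.87, Jarid2 by 0.72 and Ezh2, which writes that mark, by 0.57. Cbx2 fell by 0.57 and Phc2 by 0.47. From E13 to E14, 5 of the 18 fell and 2 rose, where 13.4% of all genes fell and 16.5% rose, with Suz12 at -0.96 and Men1 at 0.68. In the list of retinoic acid and caudal inputs, 2 of 10 tested genes (13 listed) fell from E13 to E16 (10.8% of all genes fell), Cdx1 by 0.83 and Gdf11 by 0.59, and 3 rose from E13 to E14 (16.5% of all genes rose): Cyp26b1, which degrades retinoic acid, by 1.00, Rxra by 0.85 and Rara by 0.80. From E14 to E16, Cyp26b1 fell by 1.75 and Rara by 0.84, and Rxra did not pass at -0.45. The markers of Leydig cells and red cells rose in sum from E13 to E16. Cyp26b1 is itself in the list of Sertoli markers, whose sum was highest at E14. The part of these cell types in the values was not tested.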
